A study of Ovis aries with 9 samples.

Results

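The 10 genes described here handle iron in the hepatocyte, covering its uptake, reduction, storage, export and the hormone that sets its level in blood. They were taken by symbol, as TF, TFRC, TFR2, SLC40A1, FTH1, HAMP, HJV, SLC39A14, CP and STEAP3, from a table of read counts that names 28837 genes. All 10 had a row. The study profiled hepatocytes of female sheep (Ovis aries) with Smart-seq3xpress, a plate method that prepares a library from each picked cell, and asked how these cells adapt to pregnancy and milk production. Lactation was sampled at days 7 and 15 after birth. Gestation was sampled in 6 ranges, days 40 to 50, 50 to 70, 70 to 80, 90 to 100, 100 to 120 and 140 to 150, and 1 sample came from virgin sheep. The labels give no breed, age or treatment, and no number of animals behind a sample.

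Each sample held 246 to 553 cells, 3404 in all, and 114865665 to 272944124 reads. All cells of a stage were summed to give its level, in CPM, relative to the stage's library size after TMM. TMM is a scaling that evens out differences in RNA composition. Because the labels name no separate animals, every p-value measures only the spread between these stages. Of the 13 hepatocyte markers, which included albumin, 12 were tested, and APOA2 was at 0 in every sample. Their summed level was 98835 and 72485 CPM in lactation, 150370 to 198272 CPM in gestation and 158070 CPM in the virgin sample. Summed markers of red cells reached 226 CPM at lactation day 7 and 2.86 to 70.7 CPM in the other samples, and those of macrophages ran from 15.1 to 68.6 CPM, with CD68 at 0 throughout. Summed lymphocyte markers ran from 3.46 to 47.5 CPM, and those of endothelial, stellate, neutrophil and bile duct cells stayed between 0.513 and 25.5 CPM.

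Iron travels in plasma bound to transferrin and enters cells through transferrin receptors. Inside the cell a reductase and a transporter bring it into the cytosol, ferritin stores it, and ferroportin, the one known iron exporter of mammals, releases it. Hepatocytes secrete hepcidin, which makes ferroportin be degraded, and they transcribe its gene in response to iron through BMP and SMAD signalling and to inflammation through IL6 and STAT3.

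Per kilobase of the gene length in the authors' table, HAMP had the highest mean level over the 9 samples, at 3295 CPM per kb, followed by FTH1 at 2789, TF at 1089 and CP at 570 CPM per kb. SLC39A14 averaged 97.4 CPM per kb. TFR2 (32.8), TFRC (19.6), SLC40A1 (17.6) and HJV (13.1) were lower still in CPM per kb, and STEAP3 was the lowest at 0.966. The products that hepatocytes store or secrete thus stood above the receptors and transporters on this scale. The first place of HAMP rests on its short listed length, 249 bases against 6545 for TF. In CPM its mean was 820, below TF at 7125, FTH1 at 2694 and CP at 2246. Whether reads scale with length in these libraries was not tested.

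**Figure D1:**
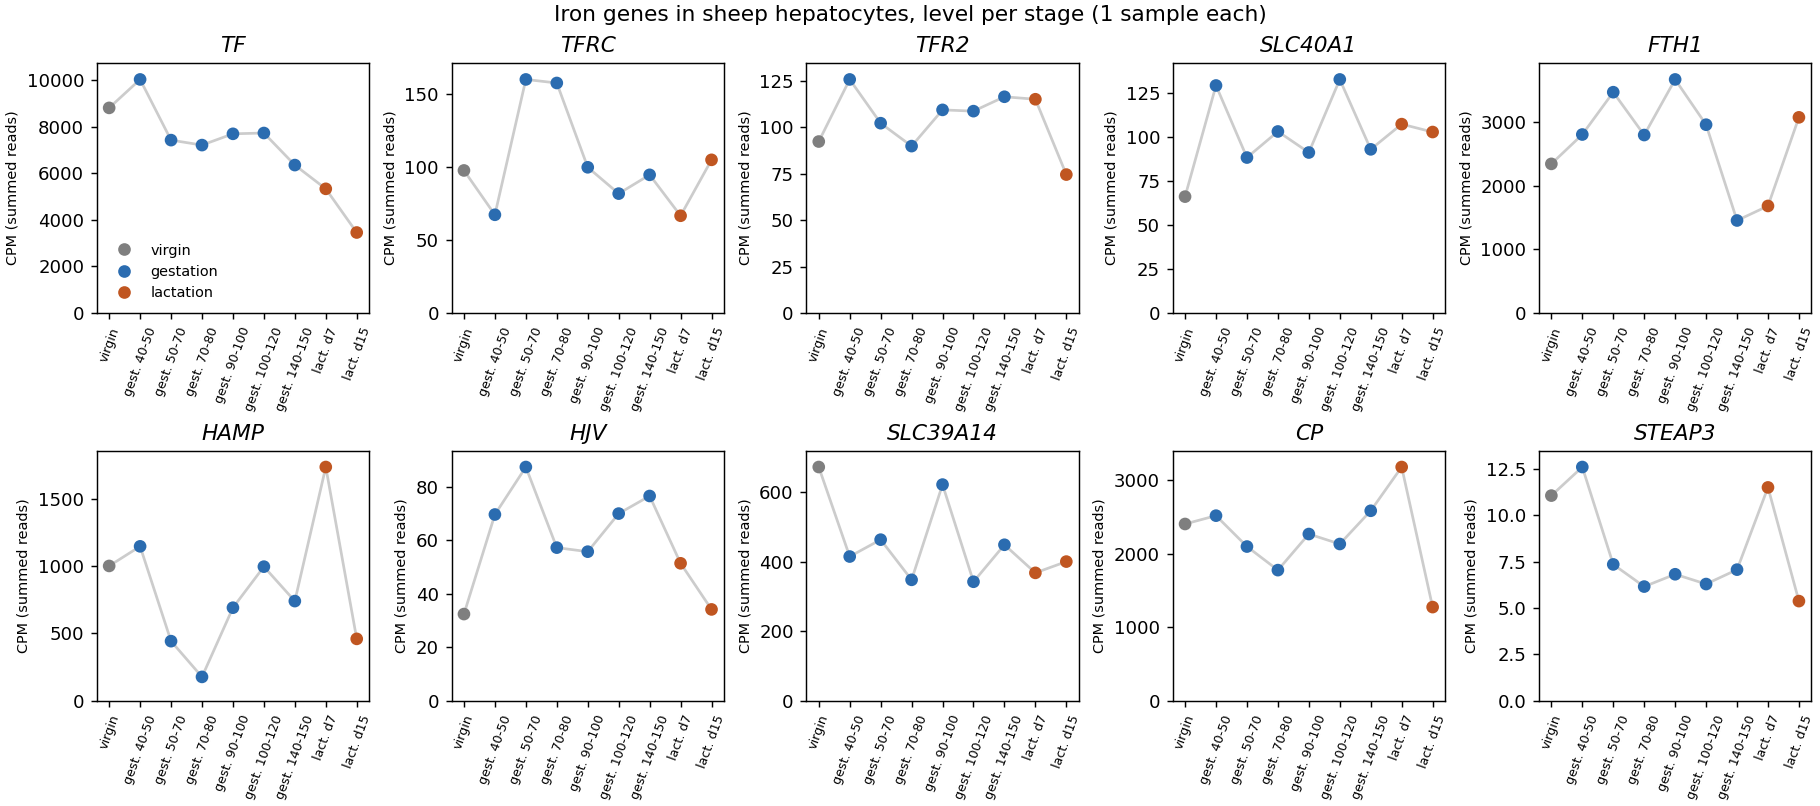
Level in CPM (y axis, from 0) of each of the 10 iron genes in each of the 9 stages (x axis, 1 point per sample: grey virgin, blue gestation, orange lactation). HAMP spans 176 to 1736 CPM, TF is lowest at lactation days 7 and 15, and HJV is lowest in the virgin sample.

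HAMP encodes hepcidin. It stood at 1001 CPM in the virgin sample, at 1146, 442, 176, 690, 995 and 739 CPM in the gestation samples in order of day, and at 1736 and 459 CPM at lactation days 7 and 15. The lowest gestation value was that of days 70 to 80 and the highest of all was that of lactation day 7, while day 15 fell within the gestation range. The highest level was 9.87 times the lowest, a wider span than that of 97.8% of the 4141 genes averaging at least 20 CPM. The other iron genes spanned 1.69-fold for TFR2 to 2.90-fold for TF. With 22467 to 277533 HAMP reads a sample, counting error was small, and among the 8 pairs of neighbours in the order of levels the exact 95% Poisson intervals of 1 pair overlapped, namely the virgin sample and days 100 to 120.

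Between lactation and gestation HAMP averaged 1097 ± 903 CPM in lactation (SD, n = 2) and 698 ± 355 CPM in gestation (n = 6). The fitted difference was 0.65 on the log2 scale (SE 0.61, adjusted p = 0.771; quasi-likelihood test of edgeR, Benjamini-Hochberg over all genes). Its direction turned with 1 library, to -0.61 without lactation day 7, and it was 1.32 without day 15. Red cell markers were highest at lactation day 7 as well. Without the 171 cells that carried the largest share of reads on markers of blood, immune, vessel, stellate and bile duct cells, HAMP stood at 1858 CPM there.

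A summed level does not tell fewer cells with a transcript apart from less of it per cell, so HAMP was also read cell by cell. With each cell thinned to 155164 reads, HAMP was detected in 92.1% of cells of the virgin sample, and in 92.8, 76.2, 76.5, 79.7, 90.9 and 90.8% of cells in the gestation samples in order of day. The share was 100% at lactation day 7 (225 of 225 cells, exact Clopper-Pearson 95% interval 98.4 to 100%) and 83.0% at day 15. Before thinning these shares were 99.6% at day 7 and 89.7% at day 15. As a gauge of stray reads of scarce transcripts, the T cell gene CD3E was detected in 1.8 to 10.7% of thinned cells and the bile duct gene EPCAM in 0.4 to 3.3%. Neither can gauge stray reads of HAMP, whose level was far higher. At 3 or more reads the share of thinned cells with HAMP was 54.5% at days 70 to 80 and 98.2% at lactation day 7. In the other samples it was 56.7 to 81.9%. Most hepatocytes of every stage thus had HAMP reads, while the summed level spanned 9.87-fold.

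The amount per cell was very uneven. In the virgin sample the median cell had 167 CPM. In the gestation samples it had 417, 28.1, 17.5, 106, 167 and 311 CPM in order of day, and at lactation days 7 and 15 it had 1690 and 68.2 CPM. The mean of the same cells was 925 CPM in the virgin sample, 451 CPM at days 50 to 70, 197 CPM at days 70 to 80 and 446 CPM at lactation day 15, several times the median in each. The 10% of cells with the most HAMP reads held 78.4% of them at days 70 to 80 and 31.3% at lactation day 7, with 49.7 to 69.8% in the other samples. Cells were ranked here by reads, not CPM, so these shares also depend on the depth of each cell. At lactation day 7 the lower quartile, 759 CPM, was above the median of each of the other 8 samples. For comparison, the 10% of cells with the most FTH1 reads held 24.2 to 46.5% of them.

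**Figure D2:**
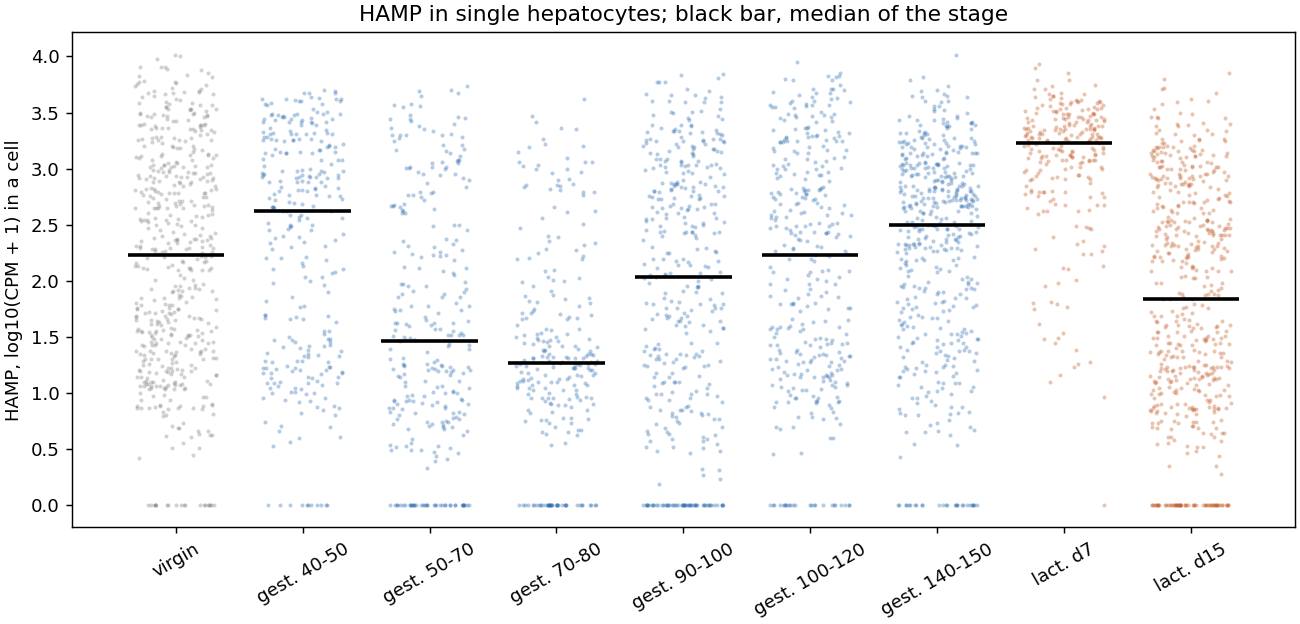
HAMP in single hepatocytes, as log10(CPM + 1) (y axis), by stage (x axis). Each point is 1 cell and the black bar is the median cell, which is 17.5 CPM at gestation days 70 to 80 and 1690 CPM at lactation day 7. Points at 0 are cells with no HAMP read.

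HAMP-rich cells were not spread evenly along the cell numbers in the column names. The labels do not say what these numbers stand for. Cut into 12 runs of consecutive cells, the virgin sample had run medians of 24.3 to 2982 CPM of HAMP, and days 40 to 50, 50 to 70, 90 to 100, 100 to 120 and 140 to 150 also had wide ranges, such as 4.62 to 1015 CPM at days 50 to 70. At days 70 to 80 all 12 runs were low, at 2.60 to 27.96 CPM, and at lactation day 7 all 12 were high, at 1094 to 2257 CPM. At lactation day 15 the runs lay between 11.97 and 753 CPM. The runs took 4.56 to 34.3% of the variance of HAMP over cells (median over stages 15.3%). Over 2100 genes averaging at least 50 CPM the typical gene had 5.97 to 12.6% between runs, by stage. The lowest day 7 run was above the highest run of 4 of the other 8 stages, and whether the runs are different animals, plates or days was not tested.

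TFRC, the transferrin receptor whose mRNA is stabilized when cellular iron is low, also differed along these runs. At days 50 to 70 its run medians were 119 to 194 CPM in the first 8 runs, in which HAMP was at 4.62 to 30.4 CPM. In the last 4 runs TFRC was at 21.6 to 70.1 CPM and HAMP at 141 to 1015 CPM. Over the 289 cells of that sample the Spearman correlation of the pair was -0.40, and in the other 8 samples it lay between -0.16 and 0.19. Within runs it was weak in every stage, between -0.15 and 0.025 with a median of -0.06. The -0.40 thus mostly reflected the difference between runs. These values describe cells that share a sample, and the difference between samples was not tested.

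**Figure D3:**
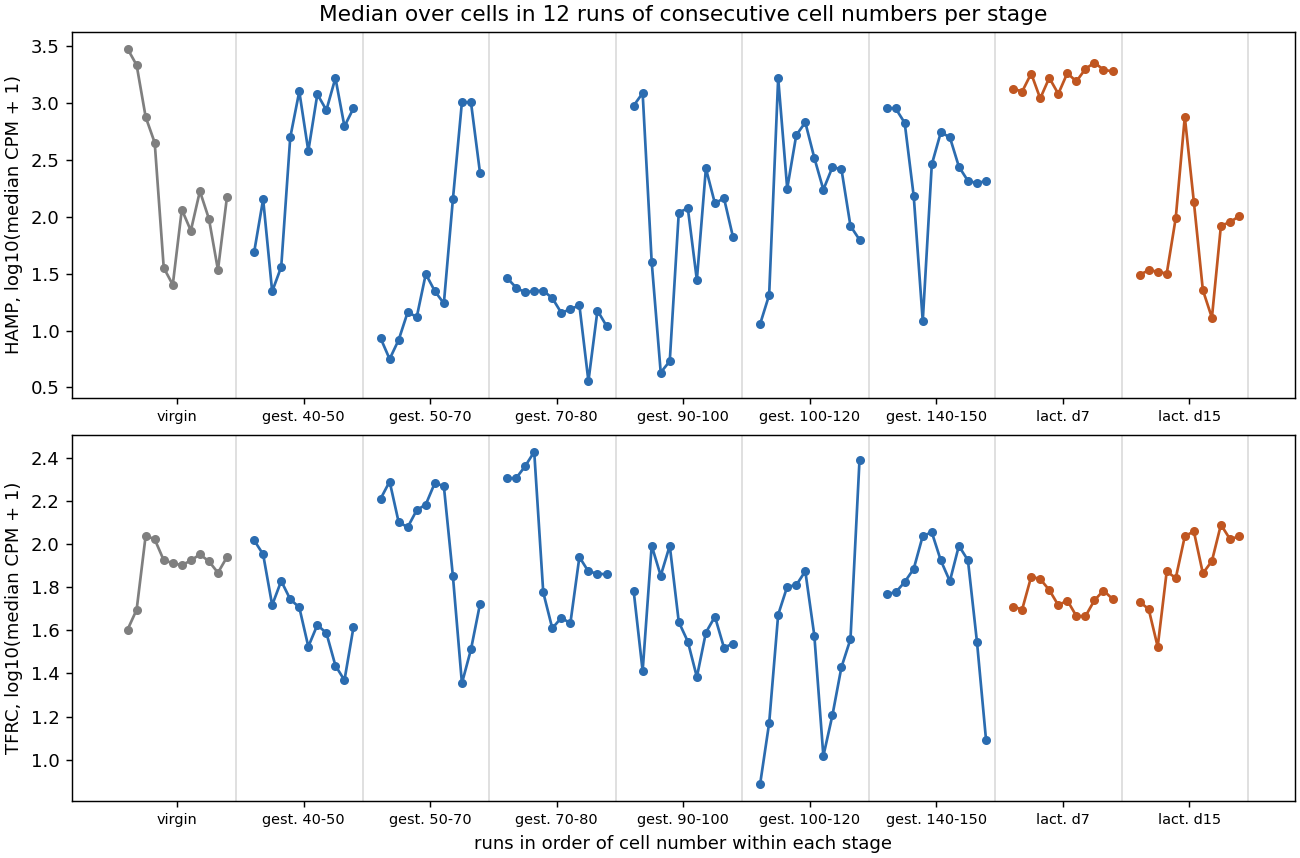
Median over cells of HAMP (top) and TFRC (bottom), as log10(median CPM + 1) (y axes), in 12 runs of consecutive cell numbers in each stage (x axis; grey virgin, blue gestation, orange lactation; a line joins the runs of a stage). HAMP is high in all runs of lactation day 7, from 1094 CPM, and low in all runs of gestation days 70 to 80, up to 27.96 CPM. At days 50 to 70 the first 8 runs have high TFRC and low HAMP, and the last 4 the reverse.

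HAMP also varied in every stage with a score of genes zoned along the liver lobule, though the position of a cell was not measured. Blood enters the lobule in the periportal zone and leaves in the pericentral zone, and hepatocytes express different enzymes along the way; in mouse, hepcidin mRNA is known to be highest in the middle of the lobule. Each cell was scored as the mean log2(CPM + 1) of 13 periportal genes minus that of 10 pericentral genes, none of them a member. HAMP correlated positively with this score in 9 of 9 stages, with Spearman values of 0.42 to 0.63 and a median of 0.47. Within runs it was positive in 108 of 108, with a median of 0.45 over the stages. Of 2084 genes averaging at least 50 CPM and not in the score, 4 had a higher median, LOC101122359, GOT1, GCSH and AOC1, which were named after their values were seen. These correlations describe the cells of 1 sample at a time and carry no p.

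The cells of each stage were then split by score into 3 equal groups. The level of a group is its summed reads relative to its library size, without TMM. HAMP stood at 1862 CPM in the most periportal group of the virgin sample, against 373 CPM in its most pericentral group. At gestation days 70 to 80, where HAMP was lowest, the periportal group stood at 492 CPM against 24.8 CPM in the pericentral group, a 19.8-fold ratio. At lactation day 7, where HAMP was highest, the 2362 CPM of the periportal group compared with 1287 CPM in the pericentral group, 1.84-fold. Day 15 had 946 CPM in the periportal and 171 CPM in the pericentral group. The ratio had a median of 4.996 over the 9 stages, and in each of the 9 the middle group lay between the outer groups. Of the 3404 cells, those within 0.1 of a boundary between groups numbered 345, and a group is a range of the score, not a cell type.

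SLC39A14 encodes ZIP14, which takes up iron not bound to transferrin. It had a weaker correlation of the same sign, median 0.26, positive in 8 of 9 stages and in 101 of 108 runs. SLC40A1, ferroportin, had a median of 0.20 and was positive in 8 of 9 stages, and FTH1 had a median of 0.14, positive in 8 of 9 stages and in 72 of 108 runs. CP, ceruloplasmin, the plasma ferroxidase that carries copper, ran the other way, with a median of -0.28, negative in 8 of 9 stages and positive in 25 of 108 runs. At lactation day 15 CP was at 1058 CPM in the most periportal group against 1655 CPM in the most pericentral group. For TF, TFRC, TFR2, HJV and STEAP3 the median stayed between -0.07 and 0.05.

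**Figure D4:**
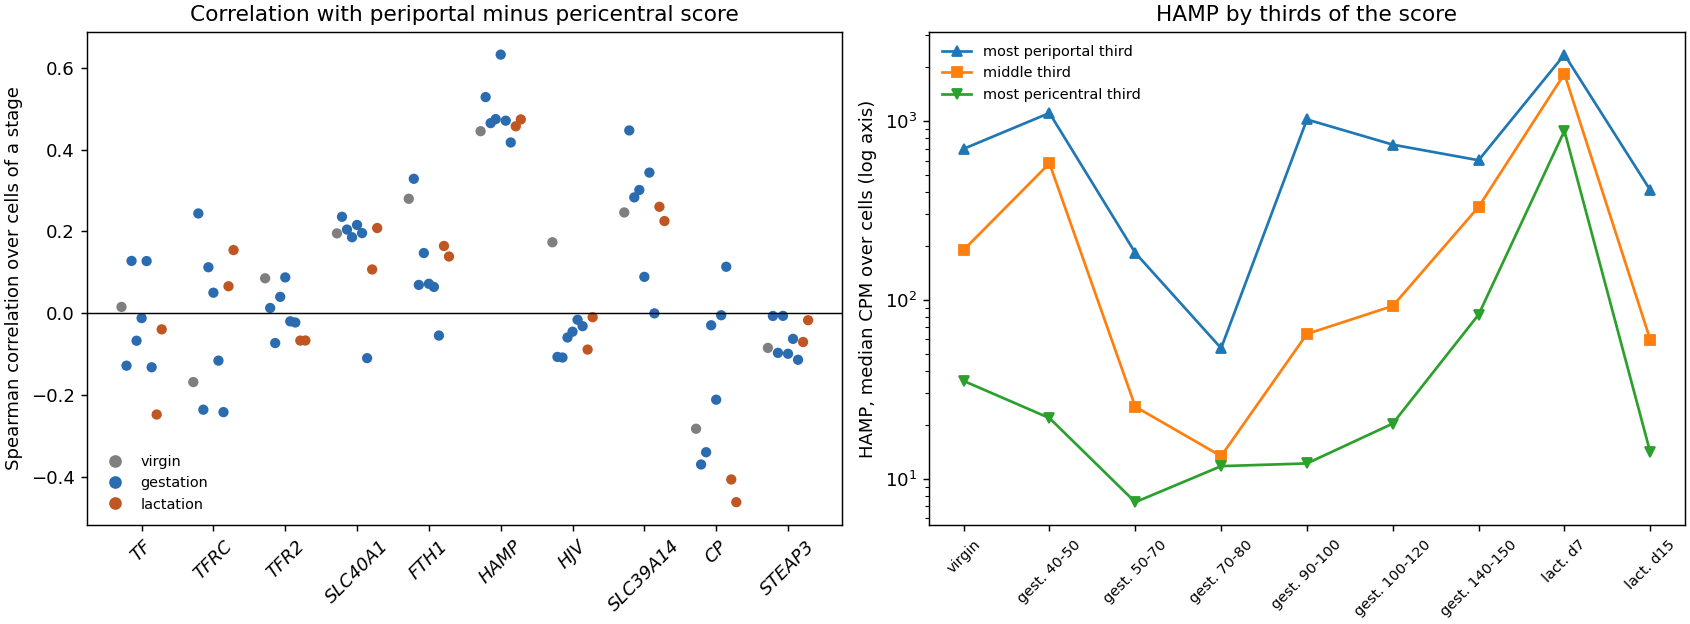
Left, Spearman correlation over cells (y axis) of each iron gene (x axis) with the periportal minus pericentral score, 1 point per stage (grey virgin, blue gestation, orange lactation). Right, median CPM of HAMP (y axis, log scale) in the most periportal, middle and most pericentral of 3 equal groups of cells of each stage (x axis). HAMP correlates at 0.42 to 0.63 in every stage, and its periportal group is above its pericentral group in every stage.

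TF encodes transferrin. It stood at 8821 CPM in the virgin sample, at 10044, 7434, 7221, 7705, 7740 and 6361 CPM in the gestation samples in order of day, and at 5340 and 3461 CPM at lactation days 7 and 15. Both lactation samples lay below all others. The mean was 4400 ± 1328 CPM in lactation and 7751 ± 1231 CPM in gestation (SD, n = 2 and 6), a log2 difference of -0.82 (SE 0.27, unadjusted p = 0.0134, adjusted p = 0.364, edgeR). DESeq2 gave -0.83 with an adjusted p of 0.0355, while all other alternatives had adjusted p-values of 0.311 to 0.680. Without lactation day 7 the difference was -1.16, and without day 15 it was -0.54. Summed hepatocyte markers were lower in lactation in the same way. Of 12 tested markers 11 were below 0, with a median log2 difference of -0.67 beside -0.01 over all genes. Their part in the level of TF was not tested. Every thinned cell of every stage had TF reads.

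TFRC stood at 97.8 CPM in the virgin sample, at 67.4, 160, 158, 100, 81.9 and 94.8 CPM in the gestation samples in order of day, and at 66.7 and 105 CPM at lactation days 7 and 15. Its 2 highest samples were days 50 to 70 and 70 to 80, the same gestation samples in which HAMP was lowest. TFR2, the second transferrin receptor, which in hepatocytes senses iron-loaded transferrin, stood at 92.4 CPM in the virgin sample, 89.9 to 126 CPM in gestation and 115 and 74.6 CPM at lactation days 7 and 15. The lactation samples of both receptors overlapped the gestation samples, with log2 differences of -0.36 (SE 0.35) for TFRC and -0.20 (SE 0.20) for TFR2.

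HJV encodes hemojuvelin, the BMP co-receptor that hepatocytes need for normal hepcidin transcription. It stood at 32.4 CPM in the virgin sample, at 69.6, 87.4, 57.2, 55.7, 69.9 and 76.5 CPM in the gestation samples in order of day, and at 51.3 and 34.1 CPM at lactation days 7 and 15. After TMM all 6 gestation samples were above both lactation samples and the virgin sample. Without TMM days 90 to 100 stood at 52.8 CPM, below lactation day 7 at 55.8 CPM. The difference between gestation and virgin was 1.101 (SE 0.32, unadjusted p = 0.00612, adjusted p = 0.901, edgeR) and that between lactation and gestation was -0.70 (SE 0.23, unadjusted p = 0.0122, adjusted p = 0.355, edgeR). The share of thinned cells with HJV reads was 79.6 and 76.8% at lactation days 7 and 15, 77.1 to 93.7% in gestation and 73.2% in the virgin sample. Lactation and gestation differed by -9.25 percentage points in this share (two-sided exact permutation p = 0.107 over 28 arrangements, adjusted p = 0.643 over 6 genes, smallest possible p 0.0357). HJV levels are uncertain, since the gene overlaps LOC132659544 in RefSeq and the strand used in counting is not stated.

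The order of the stages was not the same for HJV as for HAMP. HJV was highest at days 50 to 70, at 87.4 CPM, where HAMP was next to lowest, and over cells their median Spearman correlation was 0.01.

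SLC40A1 stood at 66.04 CPM in the virgin sample, at 129, 88.2, 103, 91.1, 133 and 92.9 CPM in the gestation samples in order of day, and at 107 and 103 CPM at lactation days 7 and 15. The virgin sample lay below the other 8. The difference was 0.68 for gestation against virgin (SE 0.28, unadjusted p = 0.0349, adjusted p = 1, edgeR), and 0.67 for lactation against virgin (SE 0.31). Between lactation and gestation it was -0.02 (SE 0.20), and its sign turned under library size scaling, to 0.18. Macrophages also express ferroportin. Their summed markers were 68.6 and 15.1 CPM at lactation days 7 and 15, 24.1 to 65.9 CPM in gestation and 25.1 CPM in the virgin sample. Without the 171 cells richest in markers of other cell types, SLC40A1 stood at 63.6 CPM in the virgin sample. It was then at 86.4 to 132 CPM in gestation and at 107 and 101 CPM at lactation days 7 and 15. Of the 9 macrophage markers tested, 8 had a fitted difference above 0 for gestation against virgin (median 0.68), against 54.8% of all genes. For lactation against virgin it was also 8 (median 0.86), against 53.4% of all genes. In both, 0 were called, and the part of macrophages in the level of SLC40A1 was not tested.

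SLC39A14 stood at 673 CPM in the virgin sample, at 415, 463, 348, 622, 342 and 449 CPM in the gestation samples in order of day, and at 368 and 400 CPM at lactation days 7 and 15. Here the virgin sample was the highest of the 9. The 622 CPM at days 90 to 100 leaned on few cells. There the 10% of cells with the most SLC39A14 reads held 52.3% of them, and the median cell had 353 CPM, against 504 CPM in the virgin sample. The difference was -0.61 for gestation against virgin (SE 0.30, unadjusted p = 0.0664) and -0.81 for lactation against virgin (SE 0.35, unadjusted p = 0.0414, adjusted p = 0.965, edgeR). The virgin group is 1 sample, so its own spread is not measured and was assumed to equal that of the other groups.

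FTH1 encodes the ferritin heavy chain, which oxidizes iron for storage. It stood at 2343 CPM in the virgin sample, at 2804, 3469, 2796, 3670, 2959 and 1453 CPM in the gestation samples in order of day, and at 1682 and 3074 CPM at lactation days 7 and 15. The 2 samples around birth, gestation days 140 to 150 and lactation day 7, were the lowest. The highest, days 90 to 100, leaned on few cells. Its median cell had 2289 CPM, below the 2354 CPM of the virgin sample, and 10% of its cells held 46.5% of the reads. The fitted slope over gestation was -0.84 per 100 days (SE 0.48, adjusted p = 0.883, edgeR) and 0.16 without days 140 to 150, so it rested on that sample. FTL, the ferritin light chain, had its lowest level in the same sample. It stood at 568 CPM in the virgin sample, at 1568, 956, 807, 746, 1141 and 390 CPM in the gestation samples in order of day, and at 620 and 1596 CPM at lactation days 7 and 15. Ferritin heavy chain genes have processed copies in mammals, and whether reads were split among them was not tested.

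CP stood at 2402 CPM in the virgin sample, at 2516, 2096, 1775, 2266, 2130 and 2582 CPM in the gestation samples in order of day, and at 3178 and 1272 CPM at lactation days 7 and 15. The 2 lactation samples were the highest and the lowest of all 9, so their mean of 2225 CPM equalled the gestation mean of 2227 CPM within a large spread (SD 1348 in lactation and 297 in gestation). CP and HAMP shared this order, with day 7 above day 15. Within each stage the pair ran the other way, with Spearman values over cells of -0.36 to -0.08. CP also ran against FTH1 in 9 of 9 stages (median -0.32). It ran with the mean of a list of IL6 signalling and acute-phase genes in 9 of 9 (median 0.39). CP overlaps LOC114110966 and HPS3 in RefSeq, so its level is uncertain in the same way as that of HJV.

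STEAP3, an endosomal reductase best known in red cell precursors, had the lowest level, at 11.1 CPM in the virgin sample, at 12.6, 7.35, 6.16, 6.82, 6.29 and 7.07 CPM in the gestation samples in order of day, and at 11.5 and 5.37 CPM at lactation days 7 and 15. It was detected in 21.5 to 50.9% of thinned cells, above the shares of CD3E and EPCAM given before. The 3 highest samples, gestation days 40 to 50, lactation day 7 and virgin, stood apart from the other 6. STEAP3 overlaps LOC132659324 in RefSeq.

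Across all genes tested edgeR called 0 of the 10 iron genes between lactation and gestation, where 0.0592% of 20263 genes were called. Of the 10, 2 had an unadjusted p under 0.05, TF and HJV, both lower in lactation, against 9.40% of all genes. The same 2 did not overlap between the groups, against 11.0%, though for HJV this held only after TMM. Of the 10, 2 had a fitted difference above 0, HAMP and STEAP3, against 48.9% of all genes, and the median was -0.20 beside -0.01 over all genes. Library size as the only scaling moved the median of all genes to 0.18 and put CP and SLC40A1 above 0.

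Between gestation and virgin 0 of 10 were called, against 0.00494% of genes, 2 had an unadjusted p under 0.05 against 4.45%, and 3 did not overlap against 27.0%. Between lactation and virgin 0 were called, against 0.00% of genes, 2 had an unadjusted p under 0.05 against 4.94%, and 4 did not overlap against 62.9%. The trend over gestation called 0 of 10, against 0.0336% of 17848 genes, and 0 had an unadjusted p under 0.05 against 6.62%. DESeq2 called TF between lactation and gestation and 0 members in the other comparisons. Set against these shares, the counts of genes that did not overlap in the comparisons with the virgin sample were no result about the group, and those at an unadjusted p rest on 2 genes each.

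**Figure D5:**
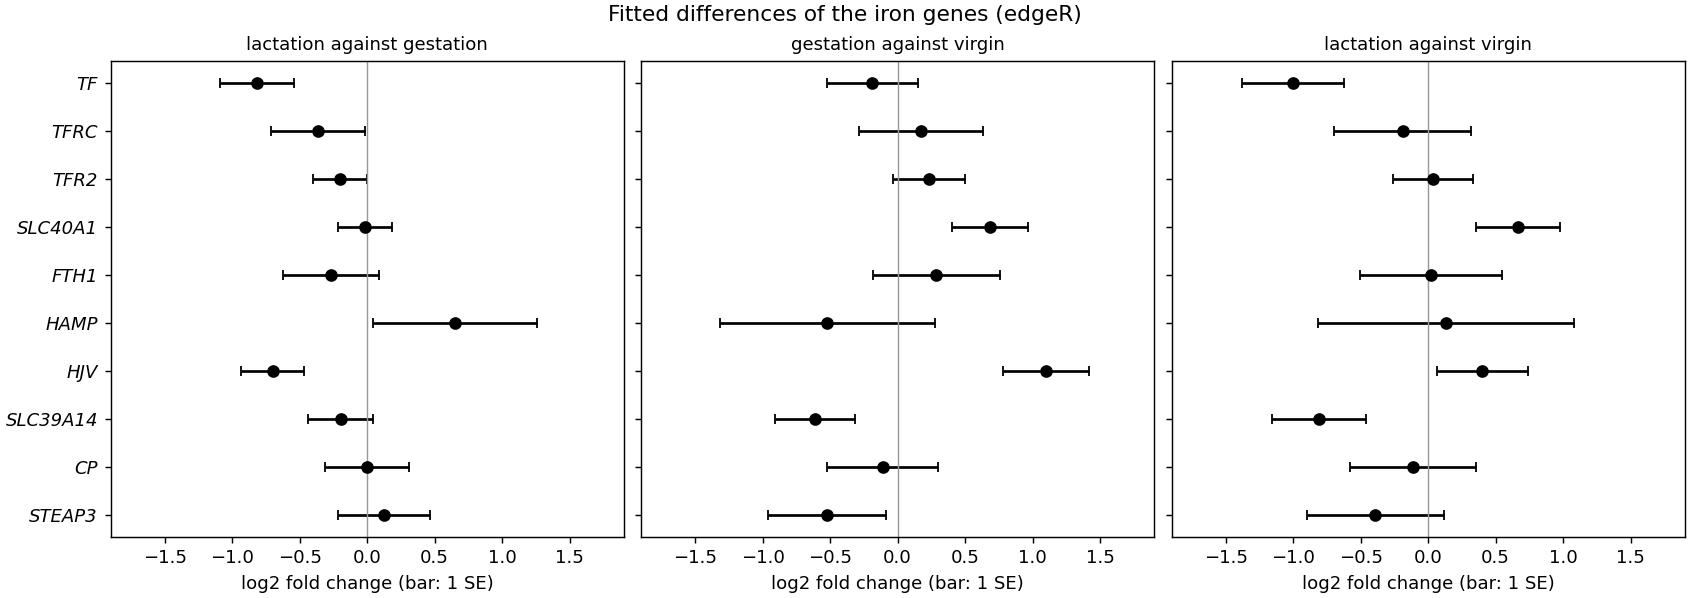
Fitted log2 differences (x axes) of the 10 iron genes (y axis) for lactation against gestation, gestation against virgin and lactation against virgin; points are edgeR estimates and bars are 1 SE. TF (-0.82) and HJV (-0.70) are lowest between lactation and gestation, HJV (1.101) is highest between gestation and virgin, and the bars of HAMP are the widest.

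Other genes of iron handling were taken from a list of 42, of which 40 had a row and 37 were tested. Between lactation and gestation 23 were above 0 and 14 below, with a median of 0.07, against 48.9% of all genes above 0. Of the 37, 1 was called, against 0.0592% of all genes. This was HMOX1, the enzyme that frees iron from heme, at 38.9 and 42.2 CPM at lactation days 7 and 15, against 5.33 to 10.4 CPM in gestation (log2 difference 2.51, SE 0.22, adjusted p = 0.00785, edgeR). SLC48A1, a heme transporter of endolysosomes, was not called (1.30, SE 0.22, adjusted p = 0.0953, edgeR), with 37.2 and 53.4 CPM in lactation against 14.1 to 24.7 CPM in gestation. Also not called were LCN2, lipocalin 2, which binds siderophores (-1.04, SE 0.31), and BLVRB, a biliverdin reductase (0.95, SE 0.30).

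Against virgin, the list had 0 calls in gestation and 0 in lactation. Those with the smallest p in gestation were SLC11A2, the metal transporter DMT1 (-0.81, SE 0.27), ACO1, iron regulatory protein 1 (0.45, SE 0.20), NFS1, a cysteine desulfurase of iron-sulfur cluster assembly (0.52, SE 0.23), and IREB2, iron regulatory protein 2 (0.49, SE 0.27). In lactation against virgin they were HMOX1 (2.92, SE 0.42), SLC48A1 (1.21, SE 0.38), SLC25A37, the mitochondrial iron importer mitoferrin 1 (0.73, SE 0.28), and ACO1 (0.49, SE 0.22). Over gestation the slopes with the smallest p, none called, were those of ATP7B, a copper exporter (1.03, SE 0.27), HERC2, a ubiquitin ligase that acts on the ferritin receptor NCOA4 (0.99, SE 0.28), STEAP1 (2.99, SE 1.02, averaging 1.49 CPM in gestation) and FTL (-1.42, SE 0.50).

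The BMP and SMAD list that leads to hepcidin had 19 genes tested. Between lactation and gestation 14 were above 0 and 5 below (median 0.10), against 48.9% of all genes above 0, with 0 called. ATOH8, a transcription factor that raises hepcidin transcription, stood at 26.9 and 27.4 CPM at lactation days 7 and 15, against 9.25 to 15.0 CPM in gestation and 8.35 CPM in the virgin sample (1.19 between lactation and gestation, SE 0.20, adjusted p = 0.0888, edgeR). Both lactation samples had it high, while HAMP was high in day 7 alone. ID3, a target of BMP signalling, was at 24.6 CPM at day 7 and 3.08 CPM at day 15, against 0.822 to 4.95 CPM in gestation (2.13, SE 0.66). BAMBI, a decoy receptor of the family (1.40, SE 0.53), and BMPR1B, a type I receptor at 0.0747 CPM in gestation (-2.70, SE 1.35), came next. The summed list was highest at lactation day 7, at 343 CPM, with 162 to 262 CPM in the other samples, the lowest being days 70 to 80. This is the same highest and lowest sample as for HAMP, but the order between them differed. The virgin sample was next to lowest for the list, at 185 CPM, while its HAMP level of 1001 CPM was among the higher ones.

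Against virgin the BMP and SMAD list had 0 calls. In gestation BMP2, a ligand at 0.332 CPM (4.46, SE 1.40), ATOH8 (0.51, SE 0.29), BMPR2, a type II receptor (-0.45, SE 0.31), and ID1, another target (1.43, SE 1.08), had the smallest p. In lactation they were ATOH8 (1.70, SE 0.34), BMP2 (5.73, SE 1.54), BAMBI (1.74, SE 0.92) and ID1 (2.17, SE 1.22), and the fold of BMP2 depends on a virgin level of 0.0144 CPM. The slopes over gestation with the smallest p were those of BAMBI (-1.33, SE 0.74), SMAD6, an inhibitor of the pathway (-1.24, SE 0.69), BMP2 (1.72, SE 0.97) and SMAD9 (1.43, SE 0.87), none called.

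Cell by cell, HAMP ran with several BMP targets in every stage, but not with all of them. Its Spearman correlation over cells was positive in 9 of 9 stages with ID1 (median 0.27), ID2 (0.29) and ID3 (0.32), and stayed so within runs, at medians of 0.33, 0.16 and 0.26. With ATOH8 it was 0.15 and with SMAD7, the inhibitor that the pathway induces, also 0.15, both positive in 9 of 9. Within runs these medians were 0.09 and 0.05, positive in 9 and 8 of 9 stages. With SMAD6 it was -0.01, positive in 3 of 9 stages, and with BAMBI 0.02, positive in 5 of 9. With FTL it was 0.30, positive in 8 of 9 stages and in 9 of 9 within runs. The genes share libraries and depth in each cell, and HAMP itself correlated with reads per cell at a median of 0.03. These values were not adjusted for the zonation score, with which HAMP correlated at a median of 0.47. The share of all genes with correlations this high was not computed.

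The inflammatory list, with IL6 signalling genes and acute-phase proteins, had 18 of 24 genes with a row. Between lactation and gestation 10 were above 0 and 8 below (median 0.11), against 48.9% of all genes above 0, with 0 called. The smallest p-values were those of JAK2, a kinase (-0.74, SE 0.31), CEBPD, a transcription factor (0.53, SE 0.38), CRP, C-reactive protein (-0.29, SE 0.23), and FGB, a fibrinogen chain (-0.36, SE 0.34). Over cells the median correlation of HAMP with single genes of the list ran from -0.33 to 0.25. It was -0.33 with C4BPA, a complement inhibitor, negative in 9 of 9 stages, and -0.18 with ORM1, an acute-phase protein. It was 0.25 with A2M, a protease inhibitor, and -0.02 with the mean of the whole list, with -0.44 to 0.17 by stage. ORM1 stood at 1885 CPM in the virgin sample, at 328, 4730, 50.1, 327, 142 and 7818 CPM in the gestation samples in order of day, and at 9781 and 115 CPM at lactation days 7 and 15. Its highest and lowest samples, lactation day 7 and gestation days 70 to 80, were those of HAMP, while at days 50 to 70 ORM1 was high and HAMP low. The summed list was also lowest at days 70 to 80, at 28347 CPM, and highest at days 140 to 150, at 64520 CPM.

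In gestation against virgin the list was led by CEBPB, a transcription factor (0.89, SE 0.51), C4BPA (0.54, SE 0.35), FGG, a fibrinogen chain (-0.44, SE 0.43), and CEBPD (0.54, SE 0.53), and in lactation against virgin by CEBPB (1.096, SE 0.57), C4BPA (0.73, SE 0.39), CEBPD (1.08, SE 0.61) and FGB (-0.75, SE 0.49). The slopes over gestation were 1.44 for CEBPB (SE 0.38), 0.65 for STAT3, the factor activated by IL6 (SE 0.22), 1.20 for CEBPD (SE 0.54) and 0.63 for FGG (SE 0.44). None was called.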

How the data were processed

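The authors deposited whole-number read counts per gene and cell, with no normalization. The tools named in the submitters' processing notes are HISAT2 2.1.0, featureCounts 2.0.1 and Trimmomatic 0.39. The genome build, the strand setting and the use of molecular identifiers are not given in the sources used here. The table had 28861 rows, of which 24 named no gene and held 0.474% of reads; these were left out. Reads per cell ran from 36518 to 3842012, no cell was removed, and intervals cover counting error only. Doublets were not called, as cells were picked singly per the labels' protocols.

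Counts were summed per stage and fitted in edgeR 4.0.16 (R 4.3.3; filterByExpr, TMM, quasi-likelihood test, Benjamini-Hochberg, adjusted p under 0.05) on phase, all 9 stages sharing 1 spread, or with the midpoint day of the 6 gestation stages per 100 days. SE is the log2 difference divided by the root of F. Alternatives used library size scaling, no filter, DESeq2 1.42.0, limma 3.58.1 on log2(mean CPM per cell + 1), sums without 171 cells, and each stage left out. The fits were checked on simulated counts. For shares, cells were thinned to 155164 reads, which left out 341 of 3404. Cell runs and zonation scores were added after seeing the data. Python 3.11.15 was used. The members and the lists were chosen with earlier results of these data known. Named genes are the 10 members, and per list and comparison the called genes or otherwise up to 4 with the smallest p. Genes of alike pattern are the 3 with the highest Pearson correlation of log2(CPM + 1) among those averaging at least 20 CPM. Those of SLC39A14 are not reported here. Gene overlaps came from RefSeq assembly ARS-UI_Ramb_v3.0, whose coordinates are not used here.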

Additional observations from a re-analysis of the deposited data

Results flagged for a closer look

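Each member was checked over the 6 gestation stages for a stage far from the others, in level and in share of cells with reads, 20 checks in all. The shares of TF, FTH1, SLC39A14 and CP were 100% in all 6 stages, so those checks could flag nothing. Chance alone picks out about 1 group in 20. In 2 checks the highest sample stood apart, both times days 40 to 50. TF was at 10044 CPM there, with 6361 to 7740 CPM in the other 5 gestation samples, a gap of 0.6256 of the whole range, just past the 95% critical value of Dixon's test. STEAP3 was at 12.6 CPM there, with 6.16 to 7.35 CPM in the other 5, a gap of 0.8147 of the range.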

How the results depend on the processing

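Over all genes edgeR called 12 for lactation against gestation, 1 for gestation against virgin, 0 for lactation against virgin (1000 at an unadjusted p under 0.05) and 6 along gestation. In the same order of comparisons DESeq2 called 523, 114, 96 and 303, and limma with equal weight per cell 6, 57, 33 and 16. Library size as the only scaling gave 22 between lactation and gestation, and no filter on low counts gave 21 there, 5 between gestation and virgin and 17 along gestation. Leaving out 1 stage at a time gave 1 to 45, 1 to 2, 0 to 1 and 0 to 9 calls, the 45 without lactation day 7. The cause of these shifts was not tested. Of 500 values of the 10 members under these alternatives, 1 crossed the threshold, TF in DESeq2 between lactation and gestation. With 0 members called at the start, few crossings were possible. In 48 of the 500 the sign of the fitted difference or slope turned. HAMP correlated with the zonation score at a median of 0.45 within runs, 0.48 with periportal genes alone and 0.35 with pericentral genes alone after turning the sign. No paired analysis was possible because the numbers of the stages come from accession order and pair nothing. The virgin sample could not be left out, and leaving out a lactation stage has no bearing on the trend, so these were not run. Counting intervals of neighbouring stages overlapped in 6 of 8 pairs for STEAP3, with 786 to 3070 reads a sample, in 4 for SLC40A1, 3 each for TFRC and TFR2, 2 for HJV, 1 each for FTH1, HAMP and SLC39A14, and 0 for TF and CP.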

Other observations

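Among 3717 genes with a symbol other than LOC and at least 20 CPM on average, those whose levels over the 9 stages were most like HAMP were CHID1 (Pearson 0.92), SYVN1, a ubiquitin ligase of the endoplasmic reticulum (0.91), and ARCN1, a coat protein of Golgi vesicles (0.90). SYVN1 stood at 29.0 CPM in the virgin sample, 16.8 to 36.4 CPM in gestation with its lowest value at days 70 to 80, and 41.7 and 31.8 CPM at lactation days 7 and 15. Like SLC40A1 were PPA2, a mitochondrial pyrophosphatase (0.98), ATP5F1A, a subunit of ATP synthase (0.97), and CPSF3 (0.95). PPA2 stood at 76.4 CPM in the virgin sample, 101 to 167 CPM in gestation, and 123 and 115 CPM at lactation days 7 and 15. Like FTH1 were SDHB, the iron-sulfur subunit of succinate dehydrogenase (0.96), CYP2E1, a heme-containing cytochrome P450 (0.95), and SQOR (0.94). SDHB stood at 215 CPM in the virgin sample, 186 to 266 CPM in gestation, and 173 and 240 CPM at lactation days 7 and 15.

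Like TF were PSMB10, a proteasome subunit (0.93), CUL7 (0.93) and TCN2, the cobalamin carrier transcobalamin (0.92). Like TFR2 were the plasma protein genes PLG (0.93), MST1 (0.92) and C8B (0.92), and like CP were MST1 (0.94), PDIA6, a protein disulfide isomerase (0.91), and ITIH3 (0.90). Like TFRC were ARHGAP42 (0.91), CNOT6L (0.89) and TMEM123 (0.87), and like HJV were ABHD15 (0.92), SERPINA10 (0.88) and TTC14 (0.88). Each value is over 9 samples that differ in stage and library together, and was among the highest of many.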
